A study of Homo sapiens with 27 samples.

Results

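A set of 10 genes of nucleic acid sensing, out of 60619 genes in the count tables, were followed in REH cells, a human leukemia line, treated with antisense oligonucleotides. They were chosen by name: the endosomal receptors TLR7 and TLR9, their relative TLR10, the transporter UNC93B1, the signal proteins MYD88, IRAK4, IRAK1 and TRAF6, and the cytosolic pair CGAS and STING1. REH is an established B-cell precursor acute lymphoblastic leukemia line with the ETV6/RUNX1 fusion. The 27 samples fell into 10 groups, all harvested after 72 h: medium alone (2 samples), and 10 µM of 1 of 9 LNA GapmeRs, which are antisense DNA strands flanked by locked nucleic acid that recruit RNase H to the RNA they pair with. The non-targeting GapmeR (NTC) had 3 samples. GapmeR1 and GapmeR2 had 2 and 3 samples against lnc-NKX2-3-1, 3 and 3 against lnc-RTN4R-1, 3 and 3 against lnc-TIMM21-5, and 3 and 2 against lnc-ASTN1-1. The oligonucleotides entered by passive uptake, so every treated sample, NTC included, had free oligonucleotide in its medium. All groups come from this 1 cell line, and medium and lnc-NKX2-3-1 GapmeR1 had no replicate 3.

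TLR7 and TLR9 sit in endosomes, where TLR7 binds single-stranded RNA and TLR9 binds DNA with unmethylated CG dinucleotides. UNC93B1 carries them there from the endoplasmic reticulum, and MYD88, IRAK4, IRAK1 and TRAF6 pass the signal on to NF-kB and IRF7. CGAS is activated by double-stranded DNA in the cytosol and makes a cyclic dinucleotide that switches on STING1, which acts through TBK1 and IRF3. TLR10 is a TLR that B cells express and whose ligand is not settled.

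The GapmeR sequences are shown because CG dinucleotides, in capitals, are the motif TLR9 is known for. All are written 5′ to 3′.
NTC: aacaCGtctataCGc
lnc-NKX2-3-1 GapmeR1: tgctctgtgCGgattg
lnc-NKX2-3-1 GapmeR2: ctgatttttagtagtg
lnc-RTN4R-1 GapmeR1: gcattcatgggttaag
lnc-RTN4R-1 GapmeR2: tgctgagacatctagg
lnc-TIMM21-5 GapmeR1: aattttgcatttggta
lnc-TIMM21-5 GapmeR2: gtcactttaattttgc
lnc-ASTN1-1 GapmeR1: taatctgccaggagtg
lnc-ASTN1-1 GapmeR2: gtctgaagtaatgga

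NTC held 2 CG dinucleotides, lnc-NKX2-3-1 GapmeR1 held 1, and the other 7 held none. No GapmeR was complementary to a member over 12 or more bases in a row, in 90 pairs of oligonucleotide and gene, spliced or unspliced. The longest run was 11 bases. Such runs were rare in any spliced transcript: 0.0051% (NTC) to 0.483% (lnc-TIMM21-5 GapmeR1) of 19676 protein-coding genes held one. Their absence is thus not particular to the members, and pairing with mismatches was not searched. Among the 8 targeting GapmeRs, 7 paired in full with their lncRNA gene, while lnc-ASTN1-1 GapmeR1 paired over 12 of its 16 bases with the gene as annotated.

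Total counts ran from 14627110 to 22750945 per sample, and 71.5% to 77.0% of reads were assigned to genes. All 4 targeted lncRNAs were lower in each of their own GapmeR samples than in any of the 5 medium and NTC samples. Of 10 B-cell precursor markers, 9 were above 1 CPM (counts scaled to equal library size after TMM) in every sample, and VPREB1 was at 0 throughout. Of 5 plasmacytoid dendritic cell markers only TCF4, which B cells also express, was above 1 CPM in every sample. None of 4 monocyte, 3 T-cell or 3 erythroid markers was. Some samples did pass 1 CPM for the monocyte marker CSF1R (median 1.24, highest 2.59 CPM) and the dendritic cell marker IL3RA (highest 1.08 CPM).

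REH cells held transcripts of 9 of the 10 members. Compared per kilobase of exon, as the mean over 27 samples, IRAK1 led with 51.9 CPM per kb. MYD88 followed at 10.4, UNC93B1 at 9.94, CGAS at 7.48 and IRAK4 at 5.22 CPM per kb. TRAF6 had 3.66, STING1 2.67, TLR10 2.42 and TLR7 0.70 CPM per kb. IRAK1 stood above all others in every sample, and the ranges of any other neighbours in this order overlapped between samples. UNC93B1 has several annotated pseudogenes, and reads that fit more than 1 place were not counted, so its level is uncertain.

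TLR9 could not be read from these tables. It had 1 count in medium replicate 2, 1 count in lnc-TIMM21-5 GapmeR1 replicate 3 and 0 in the other 25 samples, where a count of 0 allows 0.133 to 0.205 CPM (counting error only). Of its 3352 exon bases, 3341 also belong to an overlapping gene on the same strand, and reads that fell on both genes were not counted. TLR9 was left out of every test that used a low-count filter. Without that filter it was tested, on 2 counts over all samples.

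The first comparison asked whether any oligonucleotide changes the sensors: the mean of the 9 GapmeRs against medium. STING1 was the member with the largest difference, 2.06-fold higher with GapmeRs (log2 fold change 1.04, SE 0.29, 95% interval 0.44 to 1.65), and it missed the threshold with an adjusted p of 0.14 (edgeR). None of the 9 members tested was called, 1 (STING1) had an unadjusted p under 0.05, and DESeq2 called 1 (STING1). Across all 16268 genes, edgeR called 0.529% and DESeq2 1.1%.

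STING1 (chromosome 5, 139475533 to 139482935, minus strand, GRCh38) had 7.37 and 5.37 CPM in the medium samples. NTC had 8.66, 9.05 and 11.8 CPM in replicates 1 to 3. All NTC samples lay above both medium samples. Replicates of lnc-TIMM21-5 GapmeR1 held 11.3, 8.45 and 15.4 CPM, and those of its GapmeR2 9.20, 9.06 and 15.1 CPM. In lnc-ASTN1-1, GapmeR1 gave 13.1, 10.4 and 17.7 CPM, and GapmeR2 gave 8.45 and 13.4 CPM in replicates 1 and 3. These groups overlapped with NTC. STING1 stood at 12.6, 12.4 and 18.7 CPM with lnc-RTN4R-1 GapmeR1 and at 12.3, 11.4 and 21.7 CPM with its GapmeR2. Levels with lnc-NKX2-3-1 GapmeR2 were 10.5, 9.31 and 13.8 CPM, against 26.5 and 22.7 CPM with GapmeR1. Ordered by group mean, medium was lowest and lnc-NKX2-3-1 GapmeR1 highest, each without overlap with its neighbour, while all other neighbouring groups overlapped.

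All 25 GapmeR samples exceeded both medium samples for STING1, a pattern that 0.756% of the genes tested shared in this direction. In every group with a replicate 3, that replicate was the highest for STING1. The 8 GapmeR samples of replicate 3 ran from 11.8 to 21.7 CPM (median 15.2), and the 17 of replicates 1 and 2 from 8.45 to 26.5 CPM (median 10.5). Since medium lacked a replicate 3, the comparison was repeated in replicates 1 and 2 only. There STING1 was 1.76-fold higher with GapmeRs (log2 fold change 0.82, SE 0.13) and was called (adjusted p = 0.0013, edgeR), where 1.59% of genes were called. Without lnc-NKX2-3-1 GapmeR1 the log2 fold change over all replicates was 0.93 (adjusted p = 0.32, edgeR), where 0.222% of genes were called, and with medium replicate 1 or 2 left out the adjusted p was 0.38 or 1.0. Whether STING1 changed in each cell or in some of the cells cannot be told apart in bulk RNA.

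None of the other 8 members had an unadjusted p under 0.05 in this comparison. The log2 fold change was 0.27 (95% interval -0.03 to 0.57) for TRAF6, the ubiquitin ligase below the IRAK kinases, 0.29 (-0.24 to 0.82) for TLR7 and 0.16 (-0.04 to 0.37) for UNC93B1. MYD88 had 0.09 (95% interval -0.07 to 0.24) and CGAS -0.04 (-0.25 to 0.18). TLR10 (0.01), IRAK4 (0.00) and IRAK1 (-0.01) had log2 fold changes near 0, with intervals from -0.24 to 0.26, -0.13 to 0.13 and -0.12 to 0.11. GapmeR samples lay on both sides of the medium samples for each of these 8 genes. In replicates 1 and 2 only, CGAS (0.03) and IRAK1 (0.01) had the opposite sign. The median log2 fold change was 0.09 over the 9 members and -0.01 over all genes tested.

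**Figure D1:**
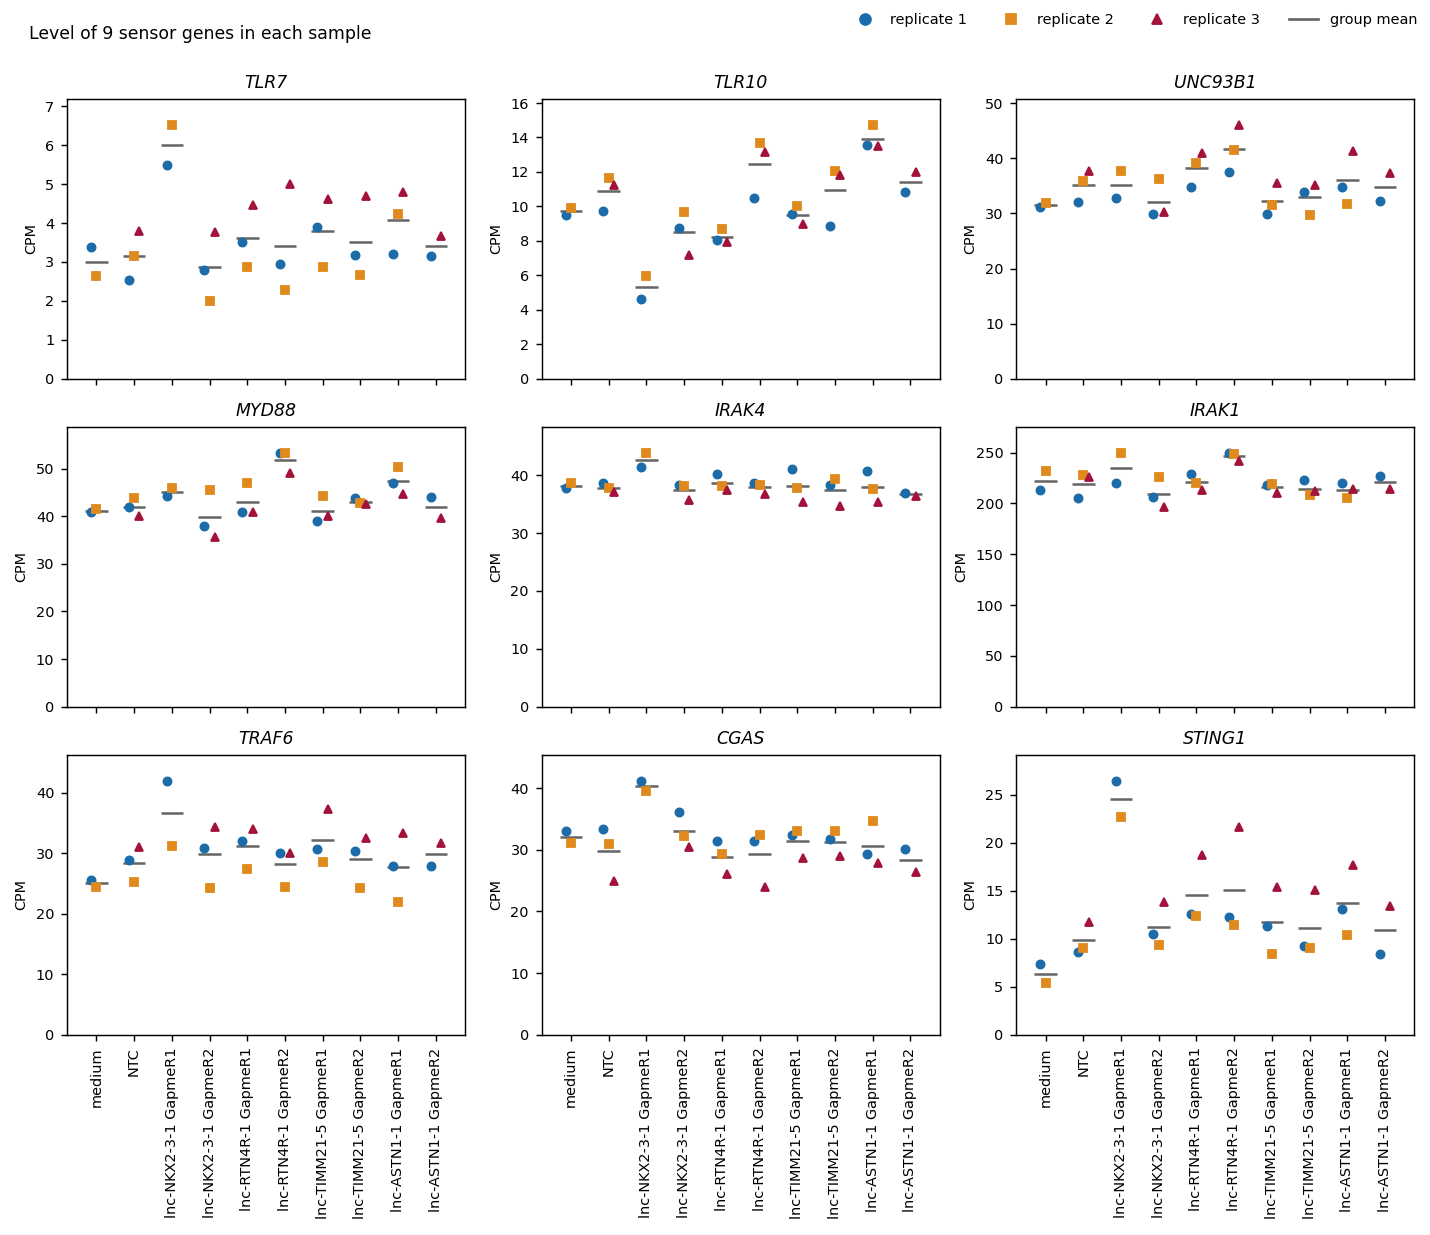
Level of the 9 tested members in CPM (vertical axes from 0) in every sample, by treatment group, with replicates 1, 2 and 3 as circles, squares and triangles and the group mean as a line. STING1 is lowest in medium (5.37 and 7.37 CPM) and highest with lnc-NKX2-3-1 GapmeR1 (22.7 and 26.5 CPM), where TLR10 is lowest.

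**Figure D2:**
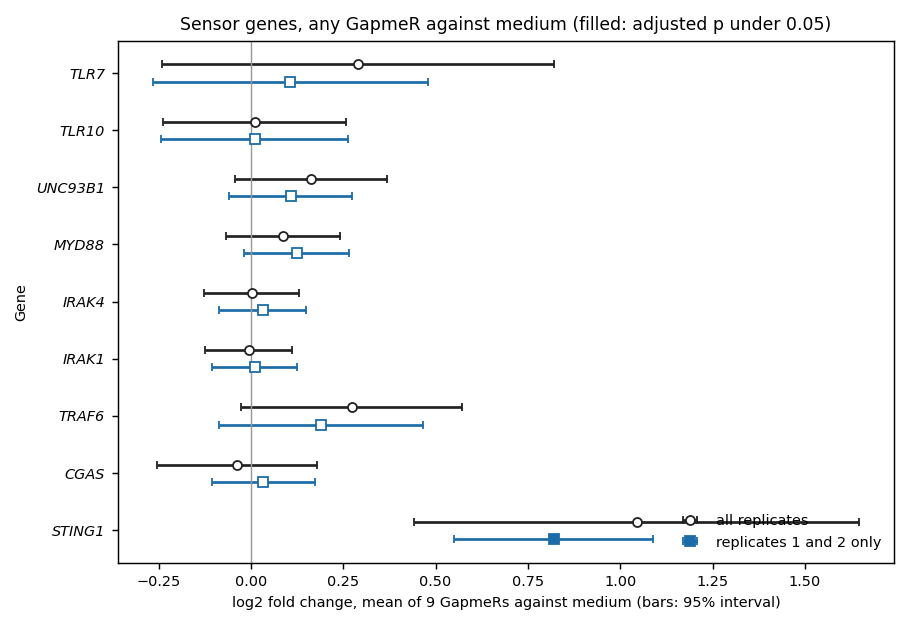
log2 fold change of each member for the mean of the 9 GapmeRs against medium, with its 95% interval, in all replicates (circles) and in replicates 1 and 2 only (squares); filled symbols have an adjusted p under 0.05. Only STING1 in replicates 1 and 2 is filled, at 0.82.

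Tested singly against medium, 2 of the 9 GapmeRs gave member calls, 5 calls in all (4 higher, 1 lower) among 81 tests. DESeq2 gave 9 calls, and 20 tests had an unadjusted p under 0.05, a count given without its share over all genes. The 9 comparisons share the same 2 medium samples, and leaving out medium replicate 1 or 2 left 2 calls each time. lnc-NKX2-3-1 GapmeR1 gave 3 calls (STING1, TLR7 and TLR10), where 12.2% of all genes were called. lnc-RTN4R-1 GapmeR2 gave 2 (STING1 and MYD88), where 5.69% of genes were called.

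For the other 7 GapmeRs edgeR called no member, and the share of genes called was 0.0% for NTC and lnc-NKX2-3-1 GapmeR2, 1.54% for lnc-RTN4R-1 GapmeR1, 0.129% and 0.0615% for lnc-TIMM21-5 GapmeR1 and GapmeR2, and 0.824% and 0.0184% for lnc-ASTN1-1 GapmeR1 and GapmeR2. NTC had no gene called by edgeR or DESeq2 and 575 genes at an unadjusted p under 0.05. STING1 was 1.54-fold higher with NTC than in medium (log2 fold change 0.63, 95% interval -0.09 to 1.34, adjusted p = 0.89, edgeR). DESeq2 also called STING1 for lnc-RTN4R-1 GapmeR1 and lnc-ASTN1-1 GapmeR1, at adjusted p-values of 0.0085 and 0.027, where it called 2.05% and 1.18% of genes. The other 7 DESeq2 calls came with lnc-NKX2-3-1 GapmeR1 (4, with TRAF6 beside the 3 of edgeR, where 13.0% of genes were called) and lnc-RTN4R-1 GapmeR2 (3, with UNC93B1, where 6.61% were). In replicates 1 and 2 only, edgeR also called STING1 for lnc-RTN4R-1 GapmeR1 and lnc-ASTN1-1 GapmeR1, at log2 fold changes of 0.97 and 0.89, where 2.42% and 1.21% of genes were called. With the replicate number as a block in the edgeR fit, lnc-ASTN1-1 GapmeR1 gave 3 member calls and lnc-TIMM21-5 GapmeR1 gave 2. lnc-TIMM21-5 GapmeR2, lnc-NKX2-3-1 GapmeR2 and lnc-RTN4R-1 GapmeR1 then gave 1 each, while NTC and lnc-ASTN1-1 GapmeR2 gave none. The range of the share of all genes called with the block is given in the closing section. It is not split by GapmeR, so these block counts are not read as results about the members.

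With lnc-NKX2-3-1 GapmeR1, STING1 was 3.86-fold higher than in medium (log2 fold change 1.95, SE 0.36, adjusted p = 0.00054, edgeR), and the call held without any of the 27 samples in turn. TLR10 was lower in both of its samples than in all other samples. TLR10 (chromosome 4, 38772238 to 38782990, minus strand) held 9.52 and 9.92 CPM in medium, 9.74, 11.6 and 11.2 CPM in NTC, and 4.63 and 5.96 CPM with this GapmeR. It fell by 0.88 on the log2 scale (SE 0.17, adjusted p = 0.00071, edgeR), which also held without any of the 27 samples in turn.

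TLR7 (chromosome X, 12867072 to 12890361, plus strand) rose 1.99-fold with lnc-NKX2-3-1 GapmeR1 (log2 fold change 0.99, SE 0.33, adjusted p = 0.048, edgeR). It had 5.50 and 6.53 CPM there, 3.39 and 2.63 CPM in medium and 2.55, 3.14 and 3.80 CPM in NTC. Those 2 samples were the highest of all 27, but TLR7 counts were low (36 to 126 per sample) and the call was borderline. It was lost without either lnc-NKX2-3-1 GapmeR1 sample (adjusted p = 0.090 and 0.23), without either medium sample (0.095 and 0.26), and without 9 other samples (0.051 to 0.057): NTC replicate 2, replicate 1 of lnc-TIMM21-5 GapmeR1, lnc-TIMM21-5 GapmeR2, lnc-NKX2-3-1 GapmeR2, lnc-RTN4R-1 GapmeR1, lnc-RTN4R-1 GapmeR2 and lnc-ASTN1-1 GapmeR2, replicate 2 of lnc-ASTN1-1 GapmeR1 and replicate 3 of lnc-ASTN1-1 GapmeR2. In replicates 1 and 2 only, the adjusted p was 0.0019. TRAF6 (log2 fold change 0.55, adjusted p = 0.064) and CGAS (0.33, adjusted p = 0.14) were not called with all replicates, and were called in replicates 1 and 2 only (0.56 and 0.34, adjusted p = 0.027 and 0.0079, edgeR), where 20.0% of genes were.

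With lnc-RTN4R-1 GapmeR2, STING1 was 2.37-fold higher than in medium (log2 fold change 1.24, SE 0.34, adjusted p = 0.032, edgeR). The call was lost without medium replicate 1 (adjusted p = 0.11), medium replicate 2 (0.28) or replicate 3 of the GapmeR itself (log2 fold change 0.89, adjusted p = 0.18), and when only this GapmeR and medium were fitted (0.065). MYD88 (chromosome 3, 38138552 to 38143024, plus strand), the adaptor shared by nearly all TLRs, had 40.8 and 41.5 CPM in medium, 41.9, 43.8 and 39.9 CPM in NTC and 53.3, 53.2 and 49.1 CPM with this GapmeR. The 3 treated samples lay above all medium and NTC samples. MYD88 was 1.26-fold higher than in medium (log2 fold change 0.33, SE 0.09, adjusted p = 0.031, edgeR). That call was lost without medium replicate 1 (adjusted p = 0.20), medium replicate 2 (0.13), or replicate 1 (0.076) or 2 (0.085) of the GapmeR, and when only this GapmeR and medium were fitted (0.063). For UNC93B1 the log2 value was 0.40 with an adjusted p of 0.054 (edgeR) or 0.028 (DESeq2).

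**Figure D3:**
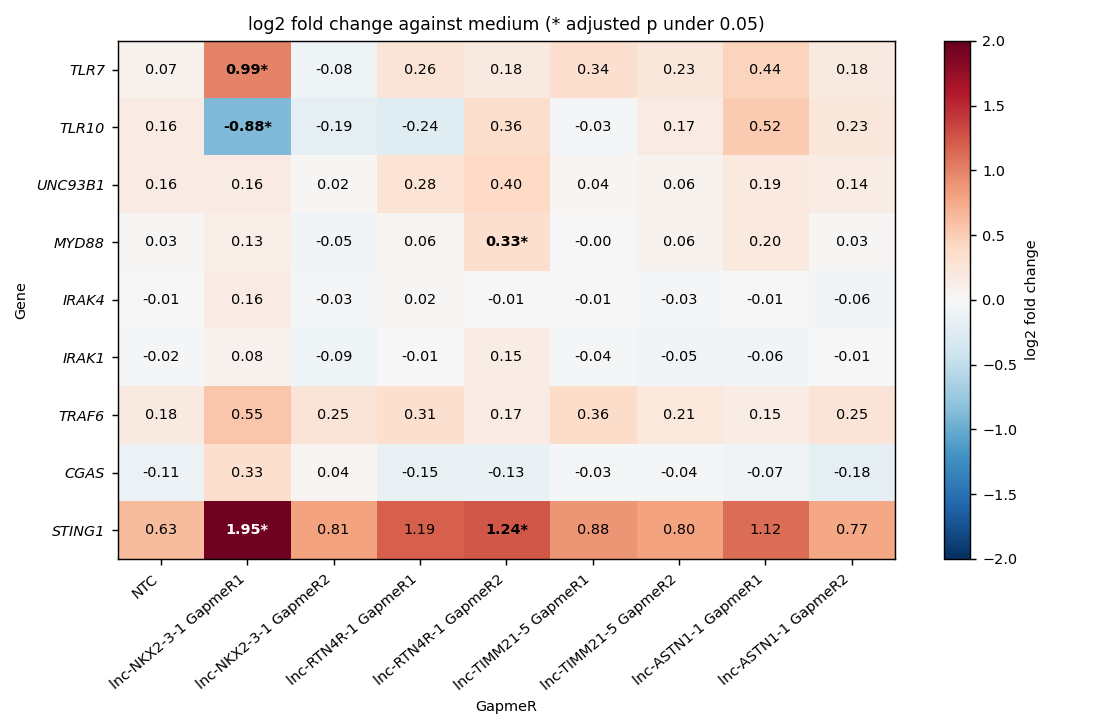
log2 fold change against medium for each member (rows) and GapmeR (columns), red for higher and blue for lower, with an asterisk where the adjusted p is under 0.05. The 5 calls lie with lnc-NKX2-3-1 GapmeR1 (TLR7, TLR10 and STING1) and lnc-RTN4R-1 GapmeR2 (MYD88 and STING1), and all 9 GapmeRs have a positive value for STING1.

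The mean of the 8 targeting GapmeRs was set against NTC, so that both sides held an oligonucleotide. NTC is 1 sequence, so the targets cannot be told apart here from the sequences of the oligonucleotides. No member was called by edgeR or DESeq2, 1 (STING1) had an unadjusted p under 0.05, and 1.04% of genes were called. STING1 had a log2 fold change of 0.47 (95% interval 0.00 to 0.94, adjusted p = 0.63, edgeR). TLR10 had -0.17 (-0.37 to 0.04), and the other 7 members lay between 0.00 and 0.24.

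GapmeRs with CG in their sequence (NTC and lnc-NKX2-3-1 GapmeR1) were compared with the mean of the 7 without. TLR10 alone was called: it was lower with CG by edgeR (log2 fold change -0.48, SE 0.09, adjusted p = 0.00055), where 9.96% of genes were called. The difference came with 1 of the 2 oligonucleotides. Without lnc-NKX2-3-1 GapmeR1, the log2 value of TLR10 was 0.04 (adjusted p = 1.0, edgeR), 0.172% of genes were called, no member was called by edgeR and none had an unadjusted p under 0.05. Without NTC, 5 members were called, where 24.1% of genes were called: TLR10 was lower (-0.98), while STING1 (0.99), TLR7 (0.79), CGAS (0.43) and IRAK4 (0.19) were higher. In replicates 1 and 2 only, 4 were called, with STING1 (0.51), TLR7 (0.45) and CGAS (0.18) higher and TLR10 (-0.49) lower, where 11.4% of genes were called. NTC held more CG dinucleotides than lnc-NKX2-3-1 GapmeR1, and with 2 such oligonucleotides the CG and the rest of each sequence cannot be told apart.

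GapmeR1 and GapmeR2 against the same lncRNA differ in sequence and share a target, so their difference was tested in 4 pairs. It gave 5 member calls in 36 tests. In the lnc-NKX2-3-1 pair, where 17.8% of genes were called, STING1 was 2.20-fold (log2 1.14, SE 0.30, adjusted p = 0.010) and TLR7 2.10-fold (log2 1.07, SE 0.29, adjusted p = 0.012) higher with GapmeR1, and TLR10 was lower (log2 -0.69, SE 0.16, adjusted p = 0.0029, edgeR). TLR10 held 8.72, 9.70 and 7.19 CPM and TLR7 2.80, 2.01 and 3.77 CPM with GapmeR2, without overlap with GapmeR1 for either gene. Without GapmeR1 replicate 1 the calls of STING1 (adjusted p = 0.086) and TLR10 (log2 -0.51, adjusted p = 0.10) were lost, and that of TLR7 was lost without GapmeR1 replicate 2 (0.12) or GapmeR2 replicate 2 (0.056).

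In the lnc-RTN4R-1 pair, where 9.09% of genes were called, TLR10 was lower with GapmeR1 than with GapmeR2 (log2 -0.60, SE 0.13, adjusted p = 0.0038), and so was MYD88 (log2 -0.27, SE 0.08, adjusted p = 0.034, edgeR). TLR10 had 8.03, 8.68 and 7.93 CPM with GapmeR1 and 10.5, 13.7 and 13.1 CPM with GapmeR2. MYD88 had 40.8, 47.0 and 40.8 CPM with GapmeR1, below all 3 samples of GapmeR2. The TLR10 call held without any of the 27 samples in turn, while that of MYD88 was lost without GapmeR1 replicate 1 (adjusted p = 0.15) or 3 (0.11), without GapmeR2 replicate 1 (0.099) or 2 (0.12), on the samples of this pair alone (0.090), and in replicates 1 and 2 only (0.053, where 8.36% of genes were called). STING1 did not separate this pair (log2 fold change -0.05, 95% interval -0.63 to 0.52).

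No member was called by edgeR or DESeq2 between the GapmeRs of lnc-TIMM21-5 (0.141% of genes called) or lnc-ASTN1-1 (0.553%), and none had an unadjusted p under 0.05. TLR10, whose group mean was highest with lnc-ASTN1-1 GapmeR1, had 13.5, 14.7 and 13.5 CPM there and 11.4 CPM ± 0.824 (SD, n = 2) with GapmeR2, all below those of GapmeR1 (log2 fold change 0.29, 95% interval -0.01 to 0.59). With lnc-TIMM21-5 it had 9.58, 10.0 and 8.95 CPM with GapmeR1 and 8.87, 12.1 and 11.8 CPM with GapmeR2.

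Both GapmeRs of each lncRNA together were then compared with the 5 medium and NTC samples as controls, 6 against 5 for lnc-RTN4R-1 and lnc-TIMM21-5 and 5 against 5 for lnc-NKX2-3-1 and lnc-ASTN1-1. The study compared each lncRNA with control samples, and whether it joined medium and NTC is not given in the sources used here. edgeR called no member for any of the 4 lncRNAs, and DESeq2 called 1 (STING1 with lnc-RTN4R-1, where it called 1.71% of genes). An unadjusted p under 0.05 was found in 9 of 36 edgeR tests, a count given without its share over all genes. Of all genes edgeR called 0.0% in the lnc-NKX2-3-1 comparison, 0.476% with lnc-RTN4R-1, 0.00665% with lnc-TIMM21-5 and 0.0136% with lnc-ASTN1-1. In this order, the log2 value of STING1 was 0.97 (SE 0.31), 0.81 (SE 0.21), 0.44 (SE 0.20) and 0.58 (SE 0.21). In replicates 1 and 2 only, STING1 was called for lnc-RTN4R-1 (0.68, adjusted p = 0.038, edgeR), where 0.939% of genes were called. The comparison was also made in 1 fit of all 27 samples, with each group mean weighted equally, which changed both the estimates and the spread. STING1 was then called for lnc-NKX2-3-1 (1.06) and lnc-RTN4R-1 (0.90), and TLR10 for lnc-NKX2-3-1 (-0.61). For these 2 lncRNAs, 8.01% and 4.68% of genes were called.

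Over all 10 groups at once, 3 of 9 members differed, TLR10 (adjusted p = 1.6e-05), STING1 (0.015) and MYD88 (0.027, edgeR), where 16.1% of genes were called. STING1 was not called without replicate 1 (adjusted p = 0.11) or 2 (0.063) of lnc-NKX2-3-1 GapmeR1. MYD88 was not called without replicate 1 of lnc-NKX2-3-1 GapmeR2 (0.052) or without replicate 1 (0.11) or 2 (0.11) of lnc-RTN4R-1 GapmeR2. TLR10 was called in each case. In order of TLR10 mean, lnc-NKX2-3-1 GapmeR1 was lowest, apart from its neighbour, and the other 9 groups overlapped from each to the next up to lnc-ASTN1-1 GapmeR1 (13.9 CPM ± 0.708, SD, n = 3).

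The kinases IRAK1 and IRAK4 varied least. IRAK1 stayed between 197 and 250 CPM and IRAK4 between 34.6 and 43.9 CPM over the 27 samples, and neither was called among the groups (adjusted p = 0.17 and 0.66, edgeR). With the replicate number as a block, edgeR called 8 of the 9 tested members among the groups, so IRAK1, IRAK4 or both were among them. The share of all genes called with the block is given in the closing section. UNC93B1 ranged from 29.8 to 46.1 CPM, TRAF6 from 22.0 to 42.0 CPM and CGAS from 23.9 to 41.2 CPM. IRAK4 and CGAS each overlap a gene on the opposite strand (TWF1 and DDX43), over 103 and 180 exon bases, and the counts used are specific to a strand.

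Across the 27 samples, the genes whose log2 CPM was most like that of TLR10 were SS18 (Pearson r = 0.85), SLC25A23 (r = 0.85) and FARP1 (r = 0.85), of 16268 genes. The samples share treatments and a cell line, so these values are a description.

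The wider pathways were followed with a list of 72 other genes, of which 63 were tested. edgeR called none of them for the mean of the 9 GapmeRs against medium, and DESeq2 called 1 (TNF). An unadjusted p under 0.05 (edgeR) was found for 6, a count given without its share over all genes. Among these genes the median log2 fold change was 0.02, against -0.01 over all genes. TNF, the cytokine that NF-kB induces, had 11.1 CPM ± 2.16 (SD, n = 2) in medium and group means of 15.1 to 19.9 CPM with the GapmeRs (log2 fold change 0.69, SE 0.21, adjusted p = 0.19, edgeR), and was called in replicates 1 and 2 only (0.54, adjusted p = 0.028). IFNB1 was at 0 in every sample, and TLR8, ZBP1, AIM2, TLR5, LGMN, ENPP1, IL6 and CXCL10 were too low to test.

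edgeR called no gene of the 8 gene groups in that comparison. Among other nucleic acid sensors (6 of 9 tested), IFI16, which binds DNA, had a log2 fold change of -0.03 and EIF2AK2, the kinase activated by double-stranded RNA, -0.02. Cell-surface TLRs (4 of 5 tested) held TLR1 at 0.15 and TLR6 at 0.34. Among 9 genes of TLR folding, trafficking and cleavage, the chaperone HSP90B1 had 0.33 and the adaptor subunit AP3B1 -0.13. Of 9 genes listed under nucleases that remove ligands, RNASEH2B and RNASEH2A, parts of an enzyme that cuts RNA in RNA-DNA hybrids, had -0.08 and -0.13. In the MyD88 pathway (16 tested) the kinase BTK had 0.02 and TAB2, which links TRAF6 to its kinase, 0.16. Cytosolic pathway genes (5 tested) included MAVS at -0.02 and TRIM56 at -0.01. The NF-kB outputs TNFAIP3 and NFKBIA, feedback inhibitors, had -0.04 and 0.08, and the interferon outputs MX1 and IFIT3 had 0.10 and 0.21. The 6 genes with an unadjusted p under 0.05 (edgeR), named after their values were seen, were all higher. That count has no share over all genes beside it, and medium lacked a replicate 3. It is therefore not read as a result about these pathways. The 6 genes were TNF (0.69), OAS1 (0.55), TLR4 (0.50), SAMHD1 (0.42), RELB (0.41) and IFIT3 (0.21).

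**Figure D4:**
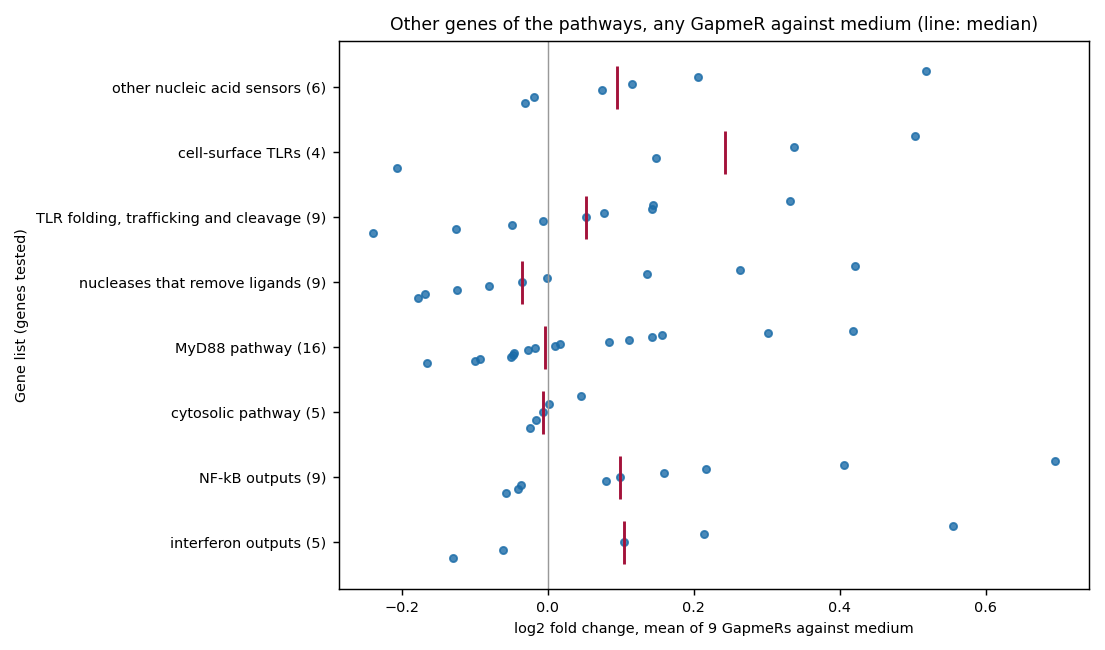
log2 fold change of each tested pathway gene (points) for the mean of the 9 GapmeRs against medium, by gene group, with the median of the group as a red line. The 63 genes spread around 0, and the point farthest to the right is TNF at 0.69.

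Single GapmeRs had calls among these genes, which are named here after their values were seen. With lnc-NKX2-3-1 GapmeR1, 7 of 63 were called against medium (11.1%, beside 12.2% of all genes), 6 higher and 1 lower. IFIT3, an interferon-induced gene, rose by 0.62 (log2, adjusted p = 0.00039), TASL, the adaptor through which SLC15A4 recruits IRF5, by 0.93 (0.0042), and IFI16 by 0.36 (0.0063, edgeR). TNF (0.84), NFKBIA (0.34) and TBK1 (0.35) were also higher and AP3B1 lower (-0.41). With lnc-RTN4R-1 GapmeR2, 3 of 63 were called (4.76%, beside 5.69% of all genes), and all 3 rose: the endolysosomal nuclease RNASET2 (0.83), BTK (0.22) and IFIT3 (0.37). With lnc-RTN4R-1 GapmeR1, 2 of 63 were called (3.17%, beside 1.54% of all genes), with the kinase MAP3K7 lower (-0.61) and SAMHD1 higher (0.75). Among the 10 groups, 10 of 63 were called (15.9%, beside 16.1% of all genes).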

How the data were processed

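RNA of 27 REH samples in 10 groups was sequenced. The deposited values are raw gene counts that the authors made with STAR (hg38, per the labels), which counts reads that map to 1 place and to 1 gene. The annotation release is not given in the sources used here. The labels name ribodepleted total RNA, the study's methods poly-A purification. The methods state that triplicates were run on different days.

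Counts of the strand column 4 (95.3% of both strands) were used. Symbols and coordinates came from GENCODE v44 (GRCh38), which matched 56434 of 60619 identifiers. Genes were kept with filterByExpr (minimum count 10, total 15), normalised by TMM and tested with the edgeR (4.0.16) quasi-likelihood test in R (4.3.3) in 1 fit of all samples with a mean per group. Both GapmeRs of a lncRNA against medium and NTC were fitted on those samples alone. P-values were adjusted by Benjamini-Hochberg over all genes tested, and under 0.05 a gene was called. Standard errors came from the F statistics. log2 CPM used a prior count of 2.

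The members, gene lists and tests were chosen with earlier results of these data known. Every member is named. Of a pathway group, up to 3 called genes with the smallest adjusted p for any GapmeR against medium are named, otherwise the 2 with the highest mean CPM. The 3 genes most like the member with the smallest adjusted p among groups are also named. GapmeR sequences were taken from the study's list of oligonucleotides.

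Results were recomputed with DESeq2 (1.42.0), RLE size factors, without the low-count filter, with a floor of 10 counts per sample, with the replicate number as a block, in replicates 1 and 2 only, on unstranded counts, with other choices of samples or controls, and with each sample left out in turn. Those without NTC, without lnc-NKX2-3-1 GapmeR1 and those that add the block to fewer samples were chosen after seeing the data. On simulated counts with 200 genes changed by 1 on the log2 scale, 85.5% were recovered for any GapmeR against medium (16038 genes), and 5.52% of the genes called were false. For both lnc-RTN4R-1 GapmeRs against medium and NTC (14898 genes), 87% were recovered and 7.45% of the calls were false. The simulated counts held no replicate effect, and the changed genes were drawn above a floor of total counts. These shares therefore need not hold for the real samples. Replicates of a group differed by more than sampling noise (chi-square per degree of freedom 3.21 to 15.7 over 24 pairs).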

Additional observations from a re-analysis of the deposited data

Results flagged for a closer look

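Listed here are members whose level differed between GapmeR1 and GapmeR2 against the same lncRNA in an edgeR test of that difference (adjusted p under 0.05). For lnc-NKX2-3-1, GapmeR1 against GapmeR2 gave a log2 difference of 1.14 for STING1, 1.07 for TLR7 and -0.69 for TLR10. For lnc-RTN4R-1, it gave -0.60 for TLR10 and -0.27 for MYD88. TLR10 is the member that separated both pairs, and it was lower with GapmeR1 in each. A check for samples far from the others of their lncRNA or of the controls, over 45 sets of 5 or 6 samples, found 0.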

How the results depend on the processing

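Results are given as the count of member calls, with all replicates first. For any GapmeR against medium, 0 members became 1 (STING1) with DESeq2, no low-count filter or replicates 1 and 2 only. For each GapmeR against medium, 5 calls became 9 with DESeq2, 12 with no filter (0.277% to 5.59% of all genes called) and 9 in replicates 1 and 2 only (0.0% to 20.0%). For targeting GapmeRs against NTC, 0 became 1 with no filter. For GapmeRs with CG, 1 became 3 with no filter, 4 in replicates 1 and 2 only, 5 without NTC and 0 without lnc-NKX2-3-1 GapmeR1, where TLR10 turned from -0.48 to 0.043. Between GapmeR1 and GapmeR2, 5 became 2 without lnc-NKX2-3-1 GapmeR1, which leaves 3 pairs. For both GapmeRs against medium and NTC, 0 became 1 with DESeq2, 1 in replicates 1 and 2 only and 3 in 1 fit of all samples. Among the 10 groups, 3 became 7 with no filter (11.1% of all genes) and 5 in replicates 1 and 2 only (20.3%). Of the pathway genes, 0 became 1 with DESeq2, 4 with no filter and 1 in replicates 1 and 2 only. The causes were not tested. Counts that have no share of all genes beside them, here or in the results above, are not read as results about the members. RLE size factors, a floor of 10 counts per sample and unstranded counts kept every one of these counts within 1.5 times.

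With each sample left out in turn (a group left with 1 sample is assumed to vary like the others), counts ranged from 2 to 7 for each GapmeR against medium, 1 to 2 for GapmeRs with CG, 4 to 6 between GapmeR1 and GapmeR2 and 2 to 3 among the groups, and stayed at 0 for the other 4 results.

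For any GapmeR against medium, members near 0 changed sign. IRAK1 (-0.01) had 0.00067 with a floor of 10 counts per sample and 0.0099 in replicates 1 and 2 only, where CGAS (-0.04) had 0.034. IRAK4 (0.00) had -0.00063 with the GapmeR samples as 1 group and -0.016 without lnc-NKX2-3-1 GapmeR1. With samples left out in turn, TLR10 ranged from -0.017 to 0.051, IRAK1 from -0.062 to 0.066, IRAK4 from -0.013 to 0.031 and CGAS from -0.072 to 0.012. Of all genes, 86 were called, against 179 with DESeq2, 467 with no filter, 262 in replicates 1 and 2 only, 36 without lnc-NKX2-3-1 GapmeR1 and 0 with the GapmeR samples as 1 group (917 at an unadjusted p under 0.05, edgeR, with STING1 at 1.06, adjusted p = 0.82).

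Replicate numbers are shared across groups, and no label says what a number marks. Deviations from group means correlated over 0.1 in 94 of 109 same-numbered pairs (mean r = 0.26, lowest -0.03) and in 25 of 218 others (mean r = -0.13), and 24 of 27 samples correlated best with their own number, a hint from the data and not from the design. With the replicate block, calls were 1, 18, 1, 5, 11, 1, 8 and 2 for the results in the order above. Of all genes, the block called 4.46%, 0.0676% to 29.2%, 5.79%, 24.2%, 0.375% to 33.4%, 0.0135% to 1.96%, 48.6% and 4.46% in the same order. STING1 then had 0.81 for any GapmeR against medium (adjusted p = 1.1e-06, edgeR), and 0.67 without lnc-NKX2-3-1 GapmeR1. IRAK1 had 0.0094 and CGAS 0.033 with the block, and 726 genes were called. The block gave 1 member and 2 pathway genes without lnc-NKX2-3-1 GapmeR1 (IRAK1 0.00088, TLR7 -0.022), and 1 member and 4 pathway genes in replicates 1 and 2 only (IRAK1 0.012, CGAS 0.033). In the block fit of all samples, 7 of 9 members differed between replicate 3 and replicates 1 and 2, where 54.1% of genes did, with STING1 at 0.64, TLR7 at 0.54 and TRAF6 at 0.28.

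Depth limits what can be said of TLR7, at 36 to 126 counts per sample.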
